A study of Mus musculus with 3 samples.

Results

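Glycolysis in the E12.5 kidney rudiment was followed through 10 genes: the hexokinases Hk1 and Hk2, the phosphofructokinase Pfkl, the aldolase Aldoa, the later enzymes Gapdh, Pgk1, Pgam1 and Eno1, and the lactate dehydrogenases Ldha and Ldhb. The members were all non-control probes whose gene name in the scanner output is 1 of these 10 symbols. This rule found 18 probes on 27 spots, among 41174 non-control probes on 43379 spots, and all 10 symbols among 27745 gene names. Kidney rudiments of C57BL/6 Fgfrl1-/- mice, which carry no intact allele of the FGF receptor-like gene Fgfrl1, were compared with rudiments of C57BL/6 wildtype mice, all at E12.5. RNA came from 3 pools of each genotype, with 6 to 9 rudiments in a pool, so that single embryos cannot be told apart. Each of 3 arrays received 1 Fgfrl1-/- pool labelled with Cy3 and 1 wildtype pool labelled with Cy5, starting from 600 ng of RNA per sample. The dyes were swapped on 0 arrays, so dye and genotype cannot be told apart in any value below.

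Glycolysis splits glucose into pyruvate in the cytosol and yields ATP without oxygen. Hexokinases trap glucose in the cell as glucose 6-phosphate, phosphofructokinase commits the sugar to breakdown, aldolase splits it, the next enzymes harvest ATP, and lactate dehydrogenase turns pyruvate into lactate and restores the NAD+ that Gapdh needs. Several of these genes, among them Hk2, Aldoa, Pgk1 and Ldha, are known targets of the hypoxia-inducible factors. Nephron progenitors of the embryonic kidney are known to rely on glycolysis, and Gapdh is often used as a reference gene for quantitative PCR.

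All values are log2 ratios of Fgfrl1-/- over wildtype after loess normalization within each array, so that a negative value means a lower signal in the Fgfrl1 deficient kidneys. The threshold was an adjusted p of 0.05 in limma's moderated test over all 41174 probes with the Benjamini-Hochberg method. The targeted gene itself had ratios of -1.21, -1.51 and -1.83 on arrays 1, 2 and 3, with a mean of -1.52 (adjusted p = 0.0332). Whether its probe lies in the deleted stretch is not given in the sources used here. Arrays 2 and 3 came from the same slide and array 1 from a different one. Across all probes, which are not independent, the ratios of array 1 correlated with those of arrays 2 and 3 at a Pearson's r of 0.11 and 0.22, whereas arrays 2 and 3 correlated at 0.71. Array 1 therefore stood apart, and the results that rest on it are given with and without it. No spot was saturated. Markers of cap mesenchyme were well above background in both channels for 10 of 10 genes, and those of ureteric epithelium for 10 of 12, the other probes being Ret and Upk3a. The 3 pools of a genotype are separate RNA preparations, and their number limits the precision of every value.

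The probes are 60 bases long, and their sequences show which stretch of each transcript was read. The positions are those that the array design gives on mm8, with the strand read from the order of the listed coordinates. No gene annotation of mm8 was used, so exons were not assigned. Hk1 is represented by 6 probes on the minus strand of chromosome 10. In the direction of transcription, A_52_P87141 comes first (chr10:61753728-61753787), followed by A_52_P9337 (chr10:61710810-61710869), A_51_P249024 (chr10:61666986-61667045), A_52_P674530 (chr10:61665344-61665403), A_52_P479599 (chr10:61665219-61665249, of which the design lists 31 bases only) and A_52_P102773 (chr10:61664525-61664584). No pair of them shares more than 8 bases in a row. The sequences of 3 of these probes, which gave different ratios as described for the hexokinases, are shown 5′ to 3′ because they read the same transcript at separate sites.
Hk1 A_51_P249024: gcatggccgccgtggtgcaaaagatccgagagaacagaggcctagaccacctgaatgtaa
Hk1 A_52_P674530: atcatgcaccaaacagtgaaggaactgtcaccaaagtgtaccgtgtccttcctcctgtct
Hk1 A_52_P479599: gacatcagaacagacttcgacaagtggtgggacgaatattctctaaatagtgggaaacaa

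Hk2 has 1 probe, A_51_P204080, on the minus strand of chromosome 6 (chr6:82690720-82690779). Its first 30 bases are shown because it is the probe that passed the test.
Hk2 A_51_P204080, first 30 bases: tagtgagcgttttgtcatcatgtacagtag

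Pfkl (A_51_P310896, chr10:77391310-77391369), Gapdh (A_52_P1687, chr6:125128116-125128174), Pgam1 (A_51_P342669, chr19:41971719-41971778), Eno1 (A_52_P349939) and Ldhb (A_51_P409173, chr6:142447540-142447599) have 1 probe each. That of Eno1 spans 226 bases (chr4:149087825-149088050) and the Ldha probe A_51_P364146 spans 930 bases (chr7:46722098-46723027), both longer than the probe itself. The other Ldha probe, A_51_P364140, lies at chr7:46723561-46723620, and the Ldha probes share no run of more than 6 bases. The probes of Aldoa, A_52_P98387 (chr7:126586433-126586492) and A_51_P216905 (chr7:126586235-126586249, 15 bases listed), share 27 bases in a row. Those of Pgk1, A_51_P182828 (chrX:102406147-102406206) and A_52_P600398 (chrX:102406169-102406228), share 38 bases. The Aldoa and Pgk1 pairs are therefore not independent readings of their genes. The shared run of Aldoa and the probes of Gapdh and Ldha that are discussed with their values are as follows.
Aldoa, run shared by both probes: caggctctttcccatcactcttgctgc
Gapdh A_52_P1687: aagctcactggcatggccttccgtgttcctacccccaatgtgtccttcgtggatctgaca
Ldha A_51_P364146: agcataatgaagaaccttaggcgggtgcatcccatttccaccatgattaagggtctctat

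Of the 10 genes, Hk2 passed the test and was lower in the Fgfrl1 deficient kidneys, whereas the other 9 did not pass. Among the 18 member probes, there was 1 lower call and there were 0 higher calls by limma, and 4 had an unadjusted p below 0.05. Over all probes, 0.398% were lower and 0.289% higher by the same test, and 1 probe among 18 is too small a count to set the members apart. The means of the member probes ran from -0.59 for Hk2 to 0.49 for Pfkl, and 8 of the 18 were below 0. Their median was 0.03, beside 0.00 over all probes. Array by array, the median of the member probes was -0.08, 0.11 and 0.12. Hk2 was lower on all 3 arrays, which was the case for 19.2% of all probes. Pfkl and both probes of Aldoa were higher on all 3 arrays, which was the case for 19.0% of all probes. The other 14 probes changed sign between the arrays.

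**Figure D1:**
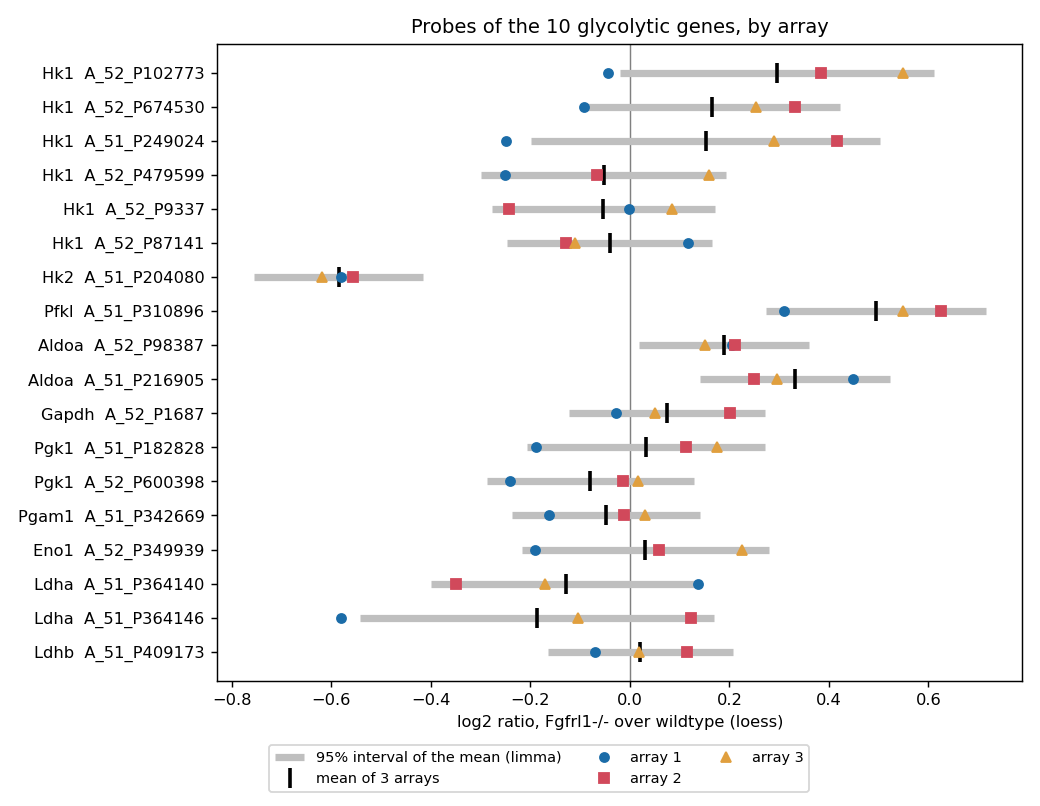
Log2 ratio of Fgfrl1-/- over wildtype (horizontal axis) for each of the 18 member probes, with 1 symbol per array, the mean of the 3 arrays as a black tick and its 95% interval as a grey bar. The arrays lie close together for Hk2 at a mean of -0.59, all 3 lie above 0 for Pfkl and Aldoa, and array 1 lies to the left of the other arrays for most Hk1 probes, Pgk1, Pgam1 and Eno1.

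Of the hexokinases, only Hk2 passed the test. Hk2, the inducible isoform found in muscle, embryonic tissue and tumours, fell to 0.667 of the wildtype signal. Its normalized log2 signal was 11.93, 11.91 and 11.84 in the Fgfrl1-/- pools, array by array, and 12.51, 12.47 and 12.46 in the wildtype pools. The signals of the genotypes did not overlap, and each genotype varied less between its pools than the genotypes differed. Pools of Fgfrl1-/- kidneys all below those of wildtype were seen for 7.18% of all probes, and the reverse for 6.75%. The ratios of Hk2 were -0.58, -0.56 and -0.62, with a mean of -0.59 ± 0.03 (SD, n = 3 arrays), a 95% interval from -0.76 to -0.42 and an adjusted p of 0.0429 by limma. Before any normalization, the median spot brightness was 3028.5, 2620.5 and 3613 in the Fgfrl1-/- channel and 4272, 9618 and 8441 in the wildtype channel.

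The direction of Hk2 held under all 16 other ways of processing in which its probe was fitted, with means from -0.95 to -0.57, but the adjusted p stayed below 0.05 in 7 of them. Quantile normalization between arrays, which is 1 of the 7, leaves the ratios as they are. It was 0.0678 when the arrays were centred on their median in place of loess, 0.0801 with the authors' own table of ratios and 0.158 with the ratios of the scanner software. Without array 1 it was 0.000202, without array 2 it was 0.367 and without array 3 it was 0.508, with means of -0.59, -0.60 and -0.57.

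Hk1, the isoform that most adult tissues express, did not pass the test with any probe. The brightest probe, A_52_P102773, which the design assigns to the transcript BC072628, had signals of 12.39, 12.39 and 12.39 in the Fgfrl1-/- pools and 12.43, 12.00 and 11.84 in the wildtype pools. The genotypes overlapped through array 1. Its ratios were -0.04, 0.38 and 0.55, with a mean of 0.30 ± 0.31 (SD, n = 3, adjusted p = 0.346). The other probes are assigned to the RefSeq transcript NM_010438. A_52_P674530 had ratios of -0.09, 0.33 and 0.25, A_51_P249024 of -0.25, 0.42 and 0.29, and A_52_P479599 of -0.25, -0.07 and 0.16. These 4 probes exceeded the background clearly in each channel of every array, and all 4 were below 0 on array 1 and above 0 on array 3. Within an array they spread over 0.21, 0.48 and 0.39 log2 units. The means ran from -0.05 for A_52_P479599 to 0.30, and thus had different signs. A_52_P87141 was well above background on 0 arrays in both channels, and A_52_P9337 on 1 array in the Fgfrl1-/- channel and 0 arrays in the wildtype channel, so these probes, the first along the transcript, give no fold.

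The difference between the hexokinases was taken within each array from their brightest probes. Hk2 minus Hk1 was -0.54, -0.94 and -1.17, with a mean of -0.88 ± 0.32 (SD, n = 3), and was below 0 on each array. An exact sign-flip permutation test, which was 2-sided, gave p = 0.25, the smallest value that 3 arrays allow. The brightest Hk1 probe had the highest mean of the Hk1 probes. With the probes of each gene averaged, dim ones included, the mean difference was -0.66. The difference between the brightest probes was -0.88 with median centring as well, and dye and genotype cannot be told apart in it.

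Pfkl, the liver-type subunit of phosphofructokinase, had the highest mean of the 10 genes. Its signals were 11.58, 11.14 and 11.19 in the Fgfrl1-/- pools and 11.27, 10.51 and 10.64 in the wildtype pools. The signal was higher in the Fgfrl1-/- pool on each array, but the genotypes overlapped across arrays. The ratios of 0.31, 0.63 and 0.55 averaged 0.49 ± 0.16 (SD, n = 3), with a 95% interval from 0.27 to 0.72 and an adjusted p of 0.087. Pfkl thus missed the threshold. With the brightest probe of each gene that RefSeq names, 18638 in all, the adjusted p of Pfkl was 0.0453 and that of Hk2 0.0191. In that test 1.76% of the genes were lower and 2.13% higher. Without array 1, the mean of Pfkl was 0.59 (adjusted p = 0.000210), and with median centring it was 0.19.

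Aldoa, the main aldolase of embryonic tissues, had positive ratios on every array with both probes. A_52_P98387 gave 0.20, 0.21 and 0.15, with a mean of 0.19 ± 0.03 (SD, n = 3, adjusted p = 0.267). The signals behind these ratios were 15.68, 15.90 and 15.92 in the Fgfrl1-/- pools and 15.48, 15.69 and 15.77 in the wildtype pools. A_51_P216905 gave 0.45, 0.25 and 0.30, with a mean of 0.33 ± 0.10 (adjusted p = 0.124). The probes differed by 0.24 on array 1 and by 0.04 and 0.15 on arrays 2 and 3, even though they have a long run of bases in common. Both changed sign with median centring, to -0.38 and -0.23.

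**Figure D2:**
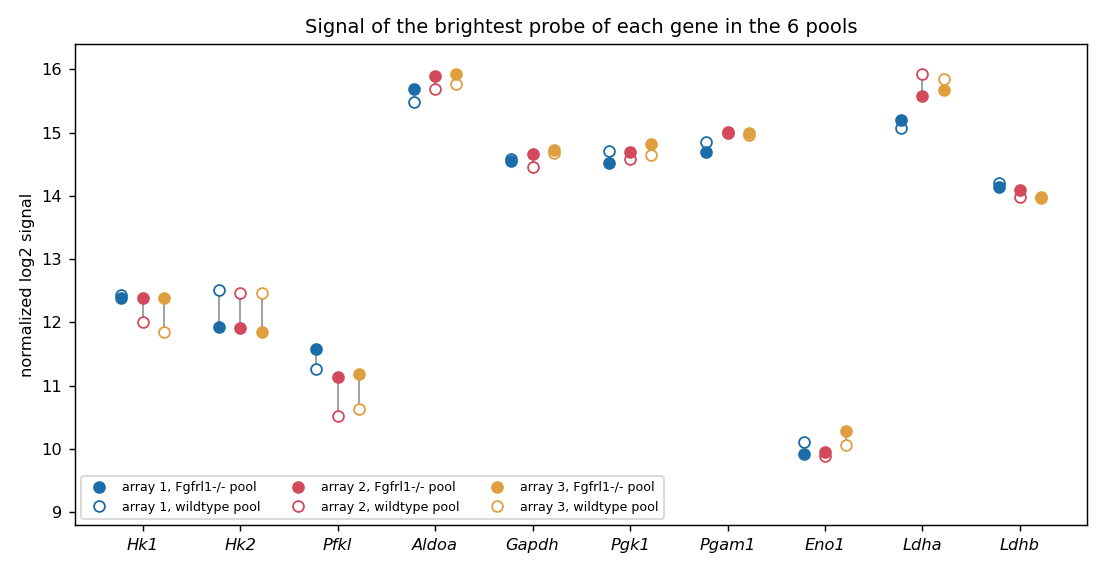
Normalized log2 signal (vertical axis) of the brightest probe of each gene in the 3 Fgfrl1-/- pools (filled) and the 3 wildtype pools (open), with a line joining the pools of 1 array. Hk2 is the gene whose filled and open circles do not overlap, at 11.84 to 11.93 and 12.46 to 12.51, while heights of different genes cannot be compared because each probe binds with its own efficiency.

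The 4 members that act between aldolase and pyruvate kinase lay close to 0 with loess. Gapdh, which oxidizes glyceraldehyde 3-phosphate, had ratios of -0.03, 0.20 and 0.05, which averaged 0.07 ± 0.12 (SD, n = 3, adjusted p = 0.733). Its 95% interval ran from -0.12 to 0.27, and the sign turned with median centring (-0.43). Pgk1 makes the first ATP of the pathway. Its probe A_51_P182828 had ratios of -0.19, 0.11 and 0.18 and a mean of 0.03 (adjusted p = 0.923), and the overlapping probe A_52_P600398 had ratios of -0.24, -0.01 and 0.02 and a mean of -0.08. Pgam1, which shifts the phosphate group, gave -0.16, -0.01 and 0.03, with a mean of -0.05 (adjusted p = 0.834). Eno1, which forms phosphoenolpyruvate, gave -0.19, 0.06 and 0.23, with a mean of 0.03 (adjusted p = 0.932). For each of these genes array 1 had the lowest ratio. The 95% intervals of Gapdh, Pgk1, Pgam1 and Eno1 with loess all lay between -0.29 and 0.28, and differences within this range could not be resolved. With median centring the means were -0.48 for A_51_P182828 of Pgk1, -0.57 for Pgam1 and -0.21 for Eno1.

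Probe A_51_P182828 of Pgk1 is printed on 10 spots of each array and shows how well single spots repeat. On array 1 its spots ranged from -0.46 to 0.36 with an SD of 0.24. On arrays 2 and 3 they ranged from 0.02 to 0.18 and from 0.09 to 0.29, with an SD of 0.06 on both arrays. The spots of array 1 were thus more scattered than those of the other arrays. A probe on chromosome 12 named TC1724708 matches 51 bases of this Pgk1 probe on the opposite strand. It had a mean ratio of -0.05 (adjusted p = 0.871), and no other probe shared 20 or more bases with a member.

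Ldha, the subunit that favours the formation of lactate, did not pass the test, and its probes disagreed. A_51_P364140 had ratios of 0.14, -0.35 and -0.17, which averaged -0.13 ± 0.25 (SD, n = 3, adjusted p = 0.664). A_51_P364146, the probe shown above, had ratios of -0.58, 0.12 and -0.10 and a mean of -0.19 ± 0.36 (adjusted p = 0.615). The probes had opposite signs on arrays 1 and 2 and lay 0.72 and 0.47 apart there, but 0.07 apart on array 3. Their means differed by 0.06 and hide this disagreement. Ldhb, the subunit that favours the use of lactate, had ratios of -0.07, 0.12 and 0.02 and a mean of 0.02 ± 0.09 (adjusted p = 0.939). Ldhb minus Ldha, from the brightest probes, was -0.21, 0.46 and 0.19 on the 3 arrays. The mean of 0.15 ± 0.34 (SD, n = 3) was smaller than its spread, and the exact sign-flip permutation test gave p = 0.75.

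The glycolytic probes are bright, with 11 of the 18 in the top decile of the signal, and the sign of many of them differed between normalizations. When each array was only centred on its median, the median ratio of all probes in that decile was -0.01, -0.85 and -0.32 on arrays 1, 2 and 3. After loess it was 0.02, 0.00 and 0.00. The median of the member probes moved from 0.03 with loess to -0.30 with median centring, and that of the brightest probe of each gene from 0.03 to -0.44. On array 2 it was -0.82 for the brightest probes with median centring. With that setting 0 member probes passed the test, with 8 of 18 at an unadjusted p below 0.05, and 10 of the 18 had a mean of the opposite sign. Hk2 lay at -0.95 with median centring, below the mean of -0.39 over the 3 arrays for the median of the top decile. Hk2, Pgam1, both Ldha probes and A_52_P600398 of Pgk1 were below 0 in both.

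**Figure D3:**
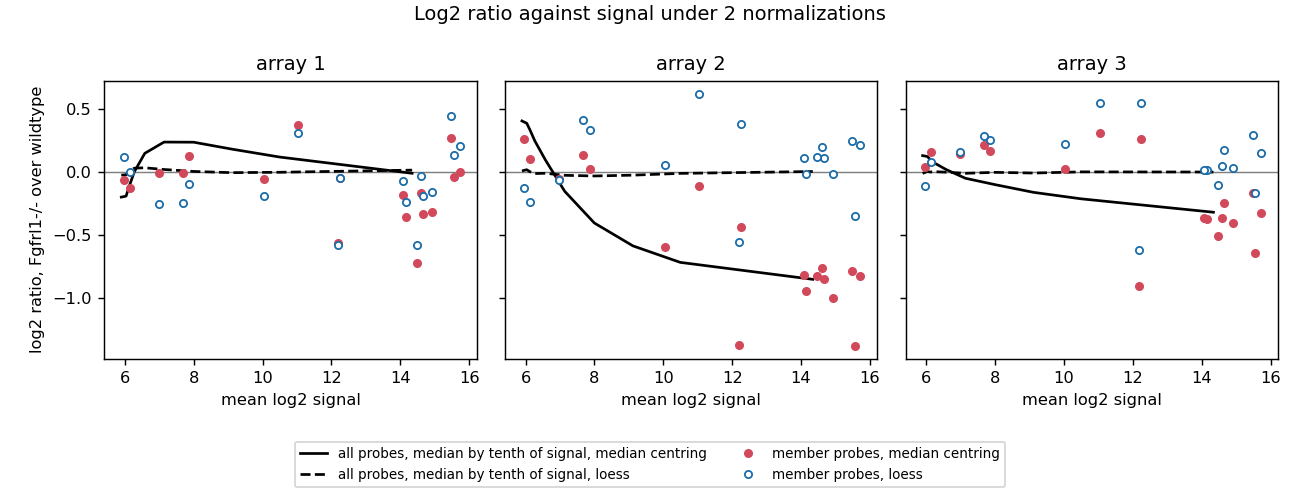
Log2 ratio of Fgfrl1-/- over wildtype (vertical axis) against the mean log2 signal (horizontal axis) on each array, for all probes as medians by decile of the signal (lines) and for the 18 member probes (circles), with median centring and with loess. The median-centred line sinks to -0.85 in the top decile of array 2 and to -0.32 on array 3, the filled member circles follow it, and the loess line stays near 0.

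The calls of the members depended on each of the arrays. Without array 1, limma called 2 member probes lower and 5 higher, beside 10.1% lower and 8.49% higher of all probes tested. The probes that were lower were Hk2 and A_51_P364140 of Ldha (-0.26, adjusted p = 0.0336). Those that were higher were 3 probes of Hk1, namely A_52_P102773 (0.47, adjusted p = 0.00122), A_52_P674530 (0.29, adjusted p = 0.0151) and A_51_P249024 (0.35, adjusted p = 0.00591), together with Pfkl and A_51_P216905 of Aldoa (0.27, adjusted p = 0.0207). Arrays 2 and 3 share a slide, and with array 1 left out the spread between slides is not part of the test. Without array 2 or without array 3, 0 member probes and 0 of all probes passed, with 3711 and 3141 of all probes at an unadjusted p below 0.05.

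**Figure D4:**
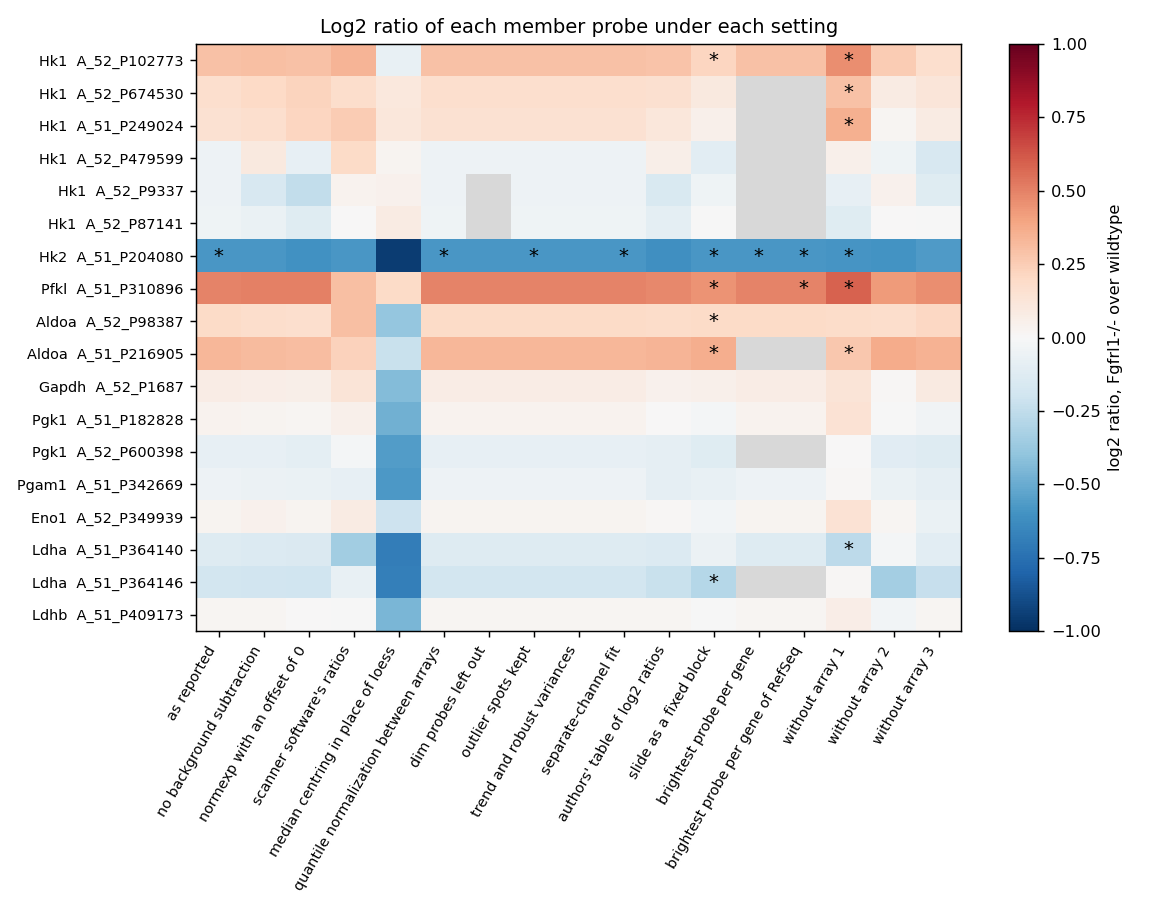
Log2 ratio of each of the 18 member probes (rows) under each way of processing (columns) as a colour from blue (lower in Fgfrl1-/-) to red (higher), with an asterisk at an adjusted p below 0.05 and grey where the probe was not fitted. Hk2 is blue in every column, from -0.95 to -0.57, Pfkl is red in every column, and Aldoa, Gapdh, Pgk1 and Ldhb turn blue in the column of median centring. Columns that change only the test or the set of probes repeat the ratios of the column as reported.

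The neighbours of these enzymes in the pathway were examined with the brightest probe of each gene, of which 0.483% over all gene names were lower and 0.342% higher. Among 17 other glycolytic enzymes and isoforms, 0 were lower and 0 higher, with a median of 0.05. The largest mean among them was 0.32 (adjusted p = 0.37) for Pgam2, the muscle phosphoglycerate mutase. Among 13 transporters of glucose and lactate, 0 were lower and 0 higher, with a median of 0.03. The largest of these was 0.32 (adjusted p = 0.127) for Slc2a10, a glucose transporter family member. Among 10 regulators of fructose bisphosphate and enzymes of gluconeogenesis, 0 were lower and 0 higher. The lowest of them was 9630033F20Rik, a former name of the fructose bisphosphatase Tigar, at -0.27 (adjusted p = 0.303).

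The routes that follow glycolysis or branch off from it had 1 call. Idh3a, a catalytic subunit of the isocitrate dehydrogenase of the citric acid cycle, fell with ratios of -0.64, -0.62 and -0.64, which averaged -0.63 ± 0.01 (SD, n = 3, adjusted p = 0.0408). It was the only one of 16 citric acid cycle genes to pass, with 0 higher, and the median of the list was -0.03. As for Hk2, its adjusted p was below 0.05 in 7 of 16 other settings and lost without array 2 (0.348) or array 3 (0.476). Among 12 genes of pyruvate entry into mitochondria, 0 were lower and 0 higher. Pdk1, the kinase that shuts pyruvate dehydrogenase, had the largest mean of that list, 0.48, with ratios of 0.53, 0.48 and 0.43 and an adjusted p of 0.064. Among 8 genes of the pentose phosphate pathway, 0 were lower and 0 higher, with H6pd, the hexose 6-phosphate dehydrogenase of the endoplasmic reticulum, at 0.32 (adjusted p = 0.116).

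Of 18 hypoxia-inducible genes, a list that also holds Slc2a1 and Pdk1, 0 were lower and 2 were higher. Over all gene names the shares were 0.483% and 0.342%. Ddit4, an inhibitor of mTOR signaling, rose with ratios of 0.96, 0.72 and 0.60 and a mean of 0.76 (adjusted p = 0.0442). P4ha1, a subunit of the collagen prolyl hydroxylase, rose with ratios of 0.73, 0.60 and 0.53 and a mean of 0.62 (adjusted p = 0.0442). The median of the list was 0.14 with loess and -0.09 with median centring, and 6 of its 18 means were below 0. Both calls were kept in 7 of 16 other settings. They were lost without array 2 (adjusted p = 0.348 and 0.38), without array 3 (0.471 and 0.476) and with median centring (0.759 and 0.611). Among 14 common reference genes, 0 were lower and 0 higher, with a median of -0.02. The largest of these by size was Hprt1, an enzyme of purine salvage, at -0.51 (adjusted p = 0.0595), lower on each array. With median centring Hprt1 was at -0.91, but bright probes sank as a group with that setting and the median of the reference list was -0.43. With loess, Gapdh at 0.07 lay closer to 0 than Hprt1, though neither passed the test.

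**Figure D5:**
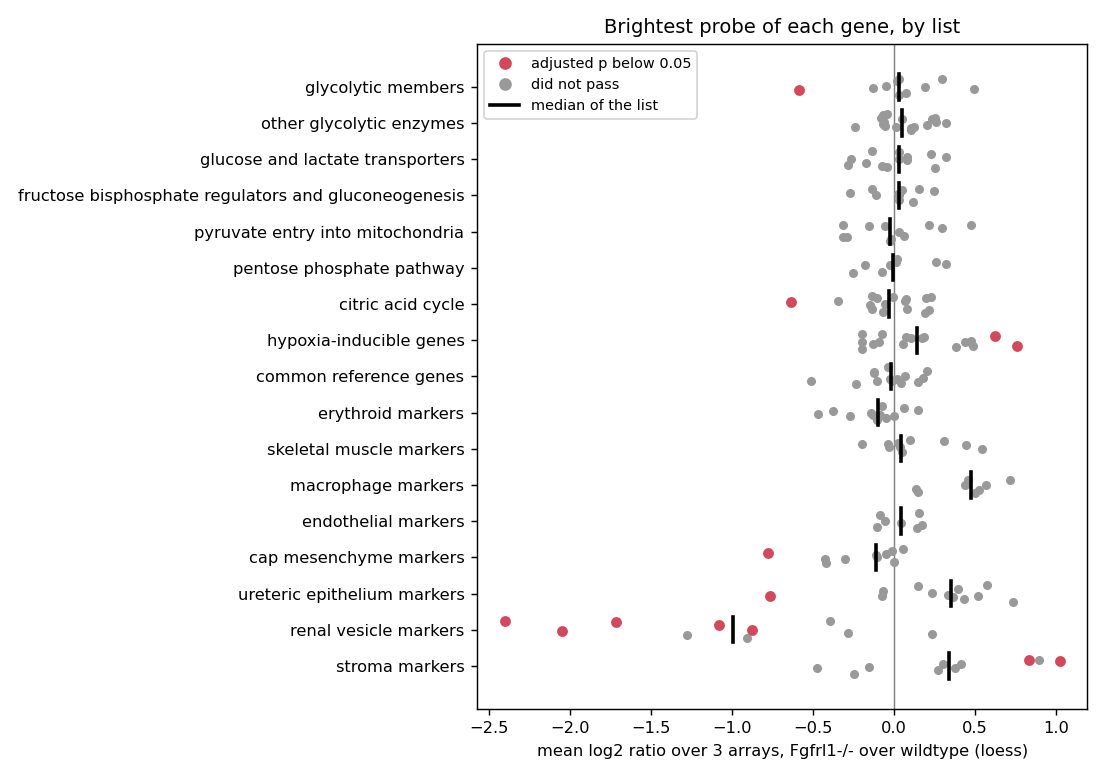
Mean log2 ratio over the 3 arrays (horizontal axis) of the brightest probe of each gene in the glycolytic set and in 16 other lists, with genes at an adjusted p below 0.05 in red, all others in grey and the median of each list as a black bar. The glycolytic lists are centred near 0 with Hk2 at -0.59 as the sole red point among them, while the 5 red renal vesicle markers lie between -2.40 and -0.88.

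Marker genes of the cell types in the rudiment were set beside these values, since the pools are bulk tissue in which fewer cells of a type and less RNA per cell cannot be told apart. Over all gene names, 0.483% were lower and 0.342% higher with the brightest probe. Of 10 renal vesicle markers, 5 were lower and 0 higher. These were Wnt4 (-2.40), Fgf8 (-2.05), Lhx1 (-1.72), Dll1 (-1.08) and Bmp2 (-0.88, whose Fgfrl1-/- signal stood well above background on 1 array). The summed normalized signal of the list on the log2 scale ranged from 12.47 to 12.86 in the Fgfrl1-/- pools and from 13.44 to 13.70 in the wildtype pools. Each such sum is weighted toward the brightest probes of its list, and each probe binds with its own efficiency. The sums given here and below are therefore no measure of the amount of a cell type. Of 10 cap mesenchyme markers, 1 was lower, Cited1 (-0.78, adjusted p = 0.0442), with summed signals of the list of 14.66 to 14.95 and 15.03 to 15.18. The median of the cap mesenchyme list was -0.11 with loess, and 8 of its 10 means were below 0. Of 12 ureteric epithelium markers, 1 was lower, the tip gene Wnt11 (-0.76, adjusted p = 0.0408). The median of the ureteric list was 0.35 with loess and 0.08 with median centring. Its summed signals, taken after loess, were 15.20 to 15.61 and 14.86 to 15.10. Of 10 stroma markers, 2 were higher, Pdgfra (1.02) and Col1a1 (0.84), with summed signals of 17.03 to 17.30 and 16.58 to 16.61. The median of the stroma list was 0.34 with loess and -0.03 with median centring. With loess 3 of its 10 means were below 0, the lowest at -0.48. Both stroma calls were lost with median centring (adjusted p = 0.213 and 0.852 by limma). The summed signal over the 10 glycolytic genes was 17.58 to 17.82 and 17.57 to 17.79, which overlap. The part of these cell types in the lower signal of Hk2 was not tested.

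Markers of cells from outside the kidney lineages had 0 lower and 0 higher calls in each list. All 8 macrophage markers had means above 0, with a median of 0.48 and the largest value of 0.71 (adjusted p = 0.0885) for Lyzs, a lysozyme gene. Their summed signal, again weighted toward the brightest probes, was 12.25 to 13.08 in the Fgfrl1-/- pools and 11.83 to 12.16 in the wildtype pools. Erythroid markers, of interest because red cells depend on glycolysis, had means below 0 for 10 of 12 genes and a median of -0.10. Hba-x, an embryonic globin, was the lowest at -0.47 (adjusted p = 0.245), and the summed signal was 17.21 to 17.27 in the Fgfrl1-/- pools and 17.35 to 17.36 in the wildtype pools. The skeletal muscle list had a median of 0.04 with Tnnt1, a slow muscle troponin, at 0.54 (adjusted p = 0.0881), and its summed signals of 10.92 to 11.70 and 10.76 to 11.60 overlapped. Of the muscle markers, Myf5 and Ckm were well above background on 0 arrays in both channels. The endothelial list, with 7 genes found, had a median of 0.04, the largest mean being 0.17 (adjusted p = 0.398) for the adhesion molecule Pecam1, and its summed signals of 13.36 to 13.84 and 13.43 to 13.70 overlapped. The part of any of these cell types in the values of the glycolytic genes was not tested.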

How the data were processed

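The scanner files that the authors deposited, made with Agilent Feature Extraction, hold the intensity of every spot and of its local background in both channels as well as the log10 ratio of the processed signals. Per the file headers, array 1 was read with version 9.5.3.1 of this software, whereas arrays 2 and 3 were read with 10.5.1.1. A further deposited table holds log2 ratios made with R and Bioconductor, whose steps are not given in the sources used here, and which served as an alternative. Gene names, which only the file of array 1 holds, were joined to the other arrays by probe. Here, median intensities were corrected with limma's normexp model (version 3.58.1, R 4.3.3, offset 50), normalized by loess within each array with control spots at weight 0, stripped of outlier spots (107, 113 and 138) and averaged over the spots of a probe. Dim probes were kept. The signals of single pools were also quantile-normalized between arrays (Aquantile). The ratios were fitted with lmFit and eBayes over 41174 probes. The loess and the fit were tried on simulated arrays with equal noise on all arrays. The background correction and the removal of outlier spots were not part of that trial. The members, the gene lists, the rule for the genes named and the tests were chosen with earlier results of these data known. The genes named were all members, the called genes of each other list or, where none passed, the gene with the largest absolute mean. The numbers of the arrays name them only and carry no order.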

Additional observations from a re-analysis of the deposited data

How the results depend on the processing

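The values were recomputed under 17 alternatives, of which 1, a test limited to the brightest probe of each RefSeq gene, was chosen after seeing the data. The slide as a random block could not be fitted, because its correlation had no value. The calls depended on the settings more than the ratios did. Probes called lower and higher, 164 and 119 as reported, were 32 and 4 with the authors' table, 34 and 7 without dim probes, 91 and 2 with median centring, 0 and 0 with a normexp offset of 0 and likewise with the ratios of the scanner software (4852 and 6118 probes at an unadjusted p below 0.05), 6 and 0 with trend and robust variances, 4648 and 5626 with the slide as a fixed block, 328 and 397 with RefSeq genes, and 0 to 4172 and 0 to 3494 with an array left out. Those higher were 72 without background subtraction and 226 in a separate-channel fit. Hk2, the 1 member called lower, was lost (0 members) without background subtraction, with median centring, the ratios of the scanner software, an offset of 0, dim probes left out, trend and robust variances and the authors' table. When the probes of each gene were averaged, 1 member was lower and 0 were higher, as reported. With the slide as a fixed block 2 members were lower and 4 higher, beside 4648 lower and 5626 higher of 41158 probes tested. That fit takes its spread only from the arrays that share a slide, so the spread between slides is not part of its test. With RefSeq genes 1 member was higher, and with an array left out 0 to 2 were lower and 0 to 5 higher. Fgfrl1 missed the threshold with the offset of 0 (-1.68), the scanner software's ratios (-1.83) and trend and robust variances (-1.52). It also missed it by limma without array 2 (adjusted p = 0.282) and without array 3 (0.450), and ran from -1.67 to -1.36 with an array left out.

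The median of the members turned to -0.30 with median centring and to -0.012 with the slide as a fixed block, and ran from -0.022 to 0.096 with an array left out, where Ldhb minus Ldha ran from -0.0093 to 0.33. Of the 286 values of member probes under an alternative, 28 turned sign, and 0 of these passed the test on either side. With median centring they were Hk1 A_52_P102773 (-0.075), A_52_P479599 (0.027), A_52_P9337 (0.045) and A_52_P87141 (0.082), Aldoa A_52_P98387 (-0.38) and A_51_P216905 (-0.23), Gapdh (-0.43), Pgk1 A_51_P182828 (-0.48), Eno1 (-0.21) and Ldhb (-0.46). Hk1 A_52_P479599 was also above 0 without background subtraction (0.10), with the authors' table (0.060) and with the scanner software's ratios (0.19), where Hk1 A_52_P9337 (0.032) and Ldhb (-0.0060) turned too. With the slide as a fixed block these were Pgk1 A_51_P182828 (-0.022), Eno1 (-0.025) and Ldhb (-0.0014). With an array left out, Hk1 A_52_P479599 ran from -0.16 to 0.047, A_52_P9337 from -0.12 to 0.041, A_52_P87141 from -0.12 to 0.0030, Pgk1 A_51_P182828 from -0.038 to 0.14 and A_52_P600398 from -0.13 to 0.00099, Pgam1 from -0.087 to 0.0085, Eno1 from -0.066 to 0.14, Ldha A_51_P364146 from -0.34 to 0.0098 and Ldhb from -0.026 to 0.066. Of the 578 counts of called genes over the 17 gene lists, the glycolytic one included, 124 moved by over 1.5 times. The cause of these moves was not tested. No paired analysis beyond the ratio was possible because each array already pairs its pools. The arrays were limited by their number and by dim probes, of which 2 belong to Hk1.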
